A study of Drosophila melanogaster with 42 samples.

Results

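The 7 rhodopsin genes of Drosophila melanogaster were followed through a time course of whole animals. They are ninaE, Rh2, Rh3, Rh4, Rh5, Rh6 and Rh7, taken as the rows of the deposited count table that carry these names, 7 of 15038 genes. All 7 were among the 13672 genes that passed the filter on low counts. The course holds 42 poly(A) RNA libraries, 3 for each of 2 genotypes, labelled control and ERR mutant, at 7 stages whose names are WPP, P1 to P4, A1 and A6 and are not spelled out. Whole flies were sampled, and animals of both genotypes received heat on days 4 and 5 AEL. By the labels 1 genotype carried the hsFLP transgene and the other lacked it. They do not say which 1 it was, which alleles or strains were used, or the sex and number of animals in a library. ERR is the estrogen-related receptor, a nuclear receptor, and the series addresses its role in the change to adult metabolism.

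A rhodopsin is a light-absorbing receptor made of an opsin protein and a bound vitamin A derivative, and in flies it activates a Gq protein, a phospholipase C and TRP channels. Each unit of the compound eye has outer photoreceptors that make the ninaE product, Rh1, and a pair of inner photoreceptors named R7 and R8. In pale units R7 makes Rh3 and R8 makes Rh5, and in yellow units R7 makes Rh4 and R8 makes Rh6. Rh2 serves the ocelli, the simple eyes on top of the head, and Rh7 has been described in clock neurons of the brain and in the eye. The larval eye uses Rh5 and Rh6.

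On the dm6 assembly with Ensembl gene models, 4 of the genes lay on chromosome arm 3R: Rh6 (3R:15483158-15484699, plus strand), Rh2 (3R:18899423-18901019, plus strand), ninaE (3R:19886255-19888206, minus strand) and Rh3 (3R:20081060-20082450, minus strand, a single exon). Rh7 (3L:12164205-12175482) and Rh4 (3L:16852527-16862517) lay on the minus strand of 3L, and Rh5 (2L:12008153-12009832) on the plus strand of 2L. The genes sina, sinah and CG13029 lie inside the span of Rh4 on the opposite strand and share 0 exon bases with it. The other 6 rhodopsin genes overlapped no annotated gene.

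Library totals ran from 4308848 to 7737140 counts, and levels below are given as CPM, the count relative to a TMM-scaled library size, so that 1 CPM stood for 3.89 to 8.14 counts. ERR itself was measured first as a check of the labels. At A6 it stood at 34.3 to 37.03 CPM in controls and at 4.51 to 5.97 CPM in mutants, a log2 fold change of -2.70 ± 0.19 (SE, n = 3 against 3, edgeR adjusted p = 2.8e-12), and it was also lower at P4 (log2 fold change -1.40, adjusted p = 1.7e-05) and A1 (-1.31, adjusted p = 2.7e-05). At the 4 earlier stages every mutant library was again under every control library, with log2 fold changes from -0.43 to -0.79 that did not pass the test (adjusted p 0.10 to 0.18). ERR shares exon bases with genes on the other strand, and how the counting treated strand is not given in the sources used here. One mutant library of P1 (replicate 1) held 5.95 CPM of 5 male-specific transcripts summed, where the other libraries held 320 to 2002 CPM. The yolk protein genes Yp1 and Yp2 had at most 11 counts in any library.

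Rhodopsin RNA appeared in controls mainly between P2 and P4. Of the 7 genes, 6 rose from P2 to P3, where 15.6% of all genes tested rose and 36.5% changed in either direction, and 6 rose from P3 to P4, where 17.3% of all genes rose and 37.5% changed. A change was called at a Benjamini-Hochberg adjusted p under 0.05 in edgeR's quasi-likelihood test. The median log2 fold change of the 7 was 2.55 for P2 to P3 and 3.46 for P3 to P4, beside -0.01 and 0.05 for all genes tested.

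For ninaE, the major rhodopsin of the eye, the control libraries held 0 to 5 counts each at WPP, P1 and P2. They held 94.7, 36.8 and 14.6 CPM at P3, and 1775, 1947 and 2201 CPM at P4. All P4 libraries were far above all P3 libraries, and the step was 40.5-fold (95% interval 18.1 to 90.6, edgeR adjusted p = 3.2e-09). The level at A1 was 1726 ± 135 CPM (SD, n = 3) and at A6 3129 ± 150 CPM, and neither later step was called (adjusted p = 0.79 and 0.22).

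Rh3, the pale R7 rhodopsin, had 0 counts in all 12 libraries of WPP and P1 in both genotypes, which allows up to 3 counts per group. It had 4 counts in all at control P2 and then 20.97, 21.1 and 11.03 CPM at P3. The P2 to P3 step was 78.2-fold (edgeR adjusted p = 1.9e-11) and the next step 4.03-fold to 71.4 ± 13 CPM. The P1 to P2 rise of Rh3 passed the test (adjusted p = 0.049) on those 4 counts and lost the call in 21 of 46 alternatives, among them the 5 that leave out control P1 replicate 1, 2 or 3 or control P2 replicate 1 or 2 (adjusted p 0.082 to 0.13).

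Rh4, the yellow R7 rhodopsin, was seen early. It went from 0.551 ± 0.212 CPM at WPP to 3.52 ± 0.238 CPM at P1 (6.17-fold, edgeR adjusted p = 2.4e-07), fell 1.95-fold to P2 (adjusted p = 0.0063), and rose 5.84-fold to P3 and 8.77-fold to P4. Rh4 also rose late, from 83.0 ± 4.41 CPM at A1 to 182 ± 11.9 CPM at A6 (2.20-fold, adjusted p = 6.7e-06). Whether the genes inside its span contributed reads to the early values was not tested.

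Rh5 and Rh6, the R8 rhodopsins of pale and yellow units, were present at WPP at 1.21 ± 0.046 and 1.39 ± 0.363 CPM, 24 and 28 counts in all. They then parted. Rh6 fell 4.86-fold to P1 (edgeR adjusted p = 0.0016) while Rh5 rose 2.004-fold (adjusted p = 0.027) and fell 4.21-fold only at the next step (adjusted p = 1.7e-04). Rh5 rose again at P3 (2.57-fold, adjusted p = 0.033), whereas Rh6 had 3 counts in all at control P3 and rose 98.0-fold to P4 (95% interval 50.7 to 189, adjusted p = 2.4e-13). These 2 rises of Rh5 rest on 11 to 54 counts a group. The first was not called without control WPP replicate 1, 2 or 3 or control P1 replicate 3 (adjusted p up to 0.14), and the second without any 1 of the 6 libraries it compares (adjusted p up to 0.090).

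After P4 the R8 pair moved in opposite directions in controls. Rh5 stood at 13.8, 19.98 and 15.6 CPM in the P4 libraries and at 7.04, 11.2 and 7.54 CPM in the A1 libraries, so that all A1 values lay below all P4 values. This fall was 1.91-fold (edgeR adjusted p = 0.0033). Rh6 went from 14.7, 23.8 and 27.3 CPM to 47.5, 43.1 and 43.3 CPM, again without overlap, a 2.04-fold rise (adjusted p = 5.6e-04). These were the 2 rhodopsin genes called at that step, where 38.9% of all genes were called.

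From A1 to A6, 24.4% of all genes were called and 2 rhodopsins, Rh4 and Rh6 (1.66-fold, edgeR adjusted p = 0.015). Without control A1 replicate 2, Rh6 was not called (adjusted p = 0.056). Rh2, the ocellar rhodopsin, went from 21.1 ± 2.34 to 31.6 ± 1.20 CPM, and its 1.501-fold difference did not pass (adjusted p = 0.054) but did in 16 of 46 alternatives. Rh2 had 5 counts in all at control WPP and 0 at control P1, a fall that was called (adjusted p = 0.016), and reached 23.1 ± 5.31 CPM at P4 after steps of 8.88-fold (95% interval 3.15 to 25.1) and 21.1-fold. The first of these rests on 2 counts at control P2, both in replicate 1, and its log2 value of 3.15 ran from 2.66 to 5.69 over the alternatives, the highest without that library, where the P2 group held 0 counts and the value is no bound.

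Rh7 had a different course. It rose from 0.347 ± 0.388 CPM at WPP to 0.986 ± 0.386 CPM at P1 (2.71-fold, edgeR adjusted p = 0.025, not called without control WPP replicate 1 or 3 or control P1 replicate 3) and by 3.66-fold from P2 to P3 (adjusted p = 4.0e-05). It then stood between 4.33 ± 0.175 and 5.49 ± 0.930 CPM from P3 to A6, with no later step called. Of the 7 genes, 5 were called from WPP to P1 (3 higher, 2 lower) and 3 from P1 to P2 (1 higher, 2 lower), where 46.7% and 44.8% of all genes were called.

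**Figure D1:**
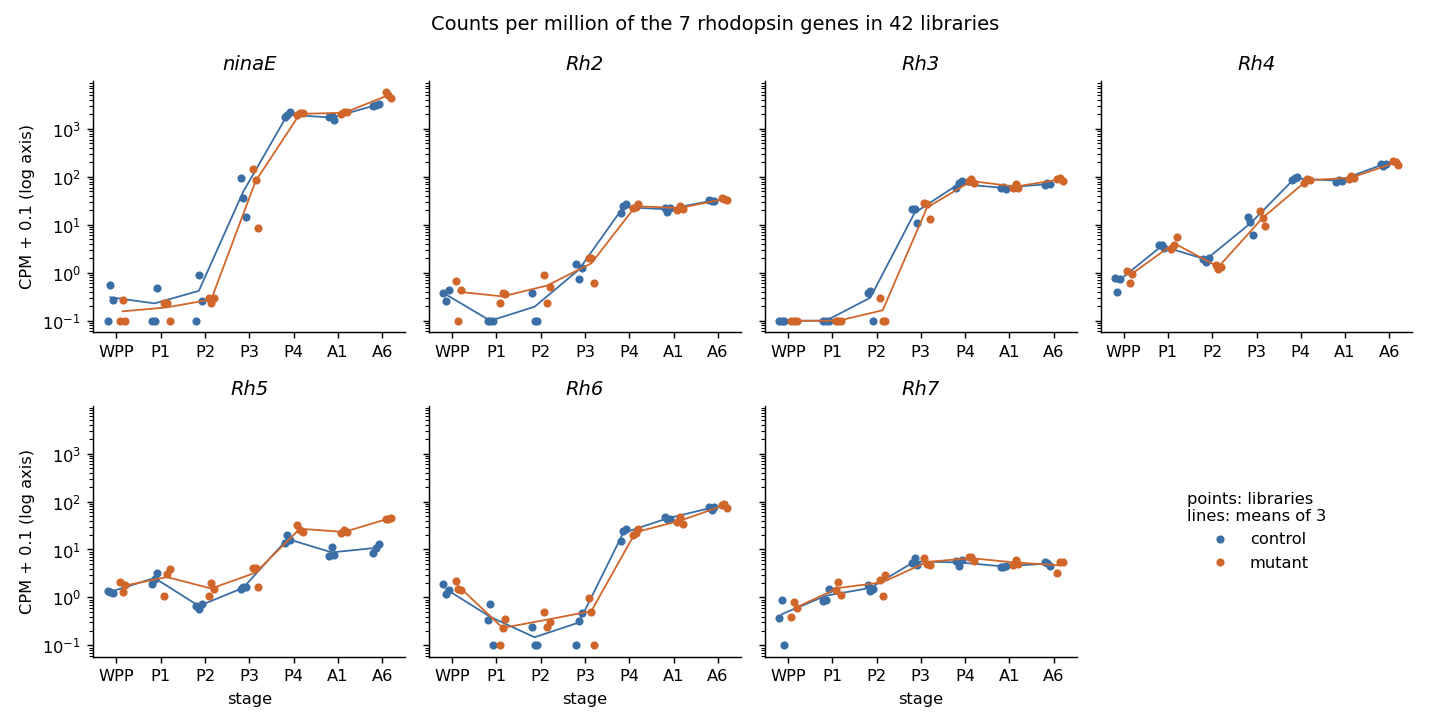
CPM plus 0.1 of each rhodopsin gene on a log axis at the 7 stages, with 1 point per library and lines through the means of 3 libraries, controls in blue and mutants in orange. The steep rise falls between P2 and P4 for ninaE and Rh3, Rh6 rises after P3, Rh7 levels off from P3, and the Rh5 lines separate at A1 and A6.

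The P3 libraries differed among themselves within each genotype. For ninaE the mutant libraries held 148, 87.3 and 8.49 CPM beside the 94.7, 36.8 and 14.6 CPM of the controls, so the genotypes overlapped. Each library was placed on the control course by 2000 other genes, on a scale where control P3 is near 4. The control libraries stood at 4.05, 4.00 and 3.96 and the mutant libraries at 4.04, 4.00 and 3.98, in the same order as their ninaE values within each genotype. Rh4 had the same order, at 14.4, 11.3 and 6.08 CPM in controls and 18.98, 13.5 and 9.26 CPM in mutants. Rh3, at 20.97, 21.1 and 11.03 CPM in controls, did not follow the order there, and at 28.3, 27.01 and 13.1 CPM in mutants did. The part of stage in this spread was not tested.

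**Figure D2:**
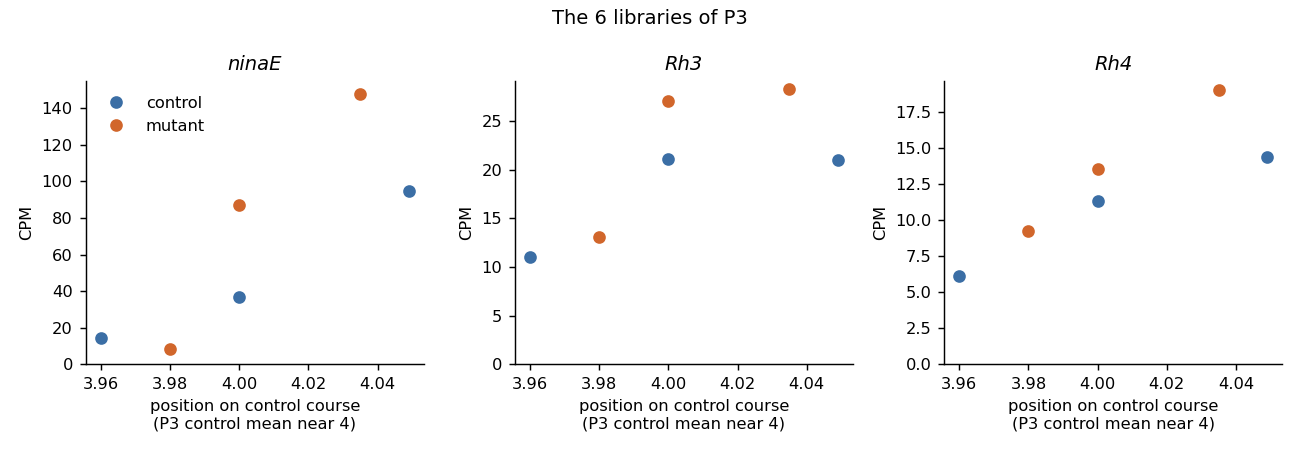
CPM of ninaE, Rh3 and Rh4 in the 6 libraries of P3 against the library's position on the control course, with controls in blue and mutants in orange. The lowest library of each genotype is also the earliest, at 3.96 in controls and 3.98 in mutants.

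Per length, from the deposited FPKM, ninaE had the highest mean of the rhodopsins in every group from P3 on. At A6 in controls it stood at 2514 ± 140 FPKM (SD, n = 3), followed by Rh4 at 176 ± 11.7, Rh6 at 68.3 ± 5.37, Rh3 at 66.1 ± 4.04, Rh2 at 30.2 ± 0.983, Rh5 at 10.1 ± 2.58 and Rh7 at 1.47 ± 0.111 FPKM. Neighbours in this order were separated in every library except Rh6 and Rh3, which overlapped. In the A6 mutants Rh5, at 40.8 ± 1.17 FPKM, stood above Rh2, at 31.8 ± 0.529 FPKM, the reverse of the control order, and both orders held in every library. At P3 ninaE, Rh3 and Rh4 overlapped in both genotypes.

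The main comparison asks whether any rhodopsin differed between ERR mutants and controls. The hsFLP transgene also differed between the genotypes, so its part and that of ERR cannot be told apart. Rh5 was the only member of the family called at any stage. It was higher in mutants at A1 and A6, where 0.929% and 6.14% of all genes tested were called higher and 2.90% and 11.4% were called in either direction. The median log2 fold change of the 7 genes was 0.21 at A1 and 0.17 at A6, beside 0.00 and 0.01 for all genes tested.

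At A6 the control libraries held 8.24, 10.8 and 13.1 CPM of Rh5 and the mutant libraries 43.9, 43.3 and 44.3 CPM. The groups were far apart, and the mutant libraries were close to each other. The difference was 4.09-fold (95% interval 2.93 to 5.72, log2 fold change 2.03 ± 0.24 SE, edgeR adjusted p = 2.5e-07). At A1 the control libraries held 7.04, 11.2 and 7.54 CPM and the mutant libraries 21.5, 25.1 and 22.6 CPM, again without overlap. That difference was 2.67-fold (95% interval 1.88 to 3.8, log2 fold change 1.42 ± 0.25 SE, adjusted p = 4.8e-04). In whole-animal RNA, more cells that make Rh5 and more Rh5 RNA in each such cell cannot be told apart, and the same holds for every gene below.

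At P4 the mutants held 31.9, 25.7 and 23.3 CPM of Rh5, all above the 13.8, 19.98 and 15.6 CPM of the controls, but the 1.63-fold difference was not called (edgeR adjusted p = 0.20). All 9 mutant libraries of P4, A1 and A6 held at least 21.5 CPM, the lowest being at A1. All 9 control libraries held at most 19.98 CPM, the highest being at P4. The share of all genes separated in this way over the 3 stages together was not counted. At earlier stages Rh5 differed by log2 values of 0.44 at WPP, 0.07 at P1, 1.36 at P2 and 1.13 at P3, none of them called (edgeR adjusted p 1, 0.97, 0.070 and 0.51), at 0.563 to 3.19 CPM a group. The genotype difference of Rh5 varied among the stages in the test of genotype by stage (adjusted p = 0.0091), which called 12.4% of all genes and 1 of the 7 rhodopsins.

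The 3 steps from P3 on were also compared between genotypes. None of the 7 genes was called for the mutant step minus the control step from P3 to P4, P4 to A1 or A1 to A6, in edgeR or in DESeq2, where edgeR called 0.0219%, 0.724% and 2.87% of all genes. An unadjusted p under 0.05 was seen for Rh5 alone, at P4 to A1. Its log2 difference between the steps was 0.71 ± 0.34 (SE, edgeR adjusted p = 0.44).

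ninaE was higher in every A6 mutant library but was not called. The controls held 2957, 3194 and 3235 CPM and the mutants 5763, 5070 and 4362 CPM, which do not overlap. The fold was 1.62 (95% interval 0.834 to 3.14, edgeR adjusted p = 0.43). The fit shares 1 estimate of spread per gene over all 42 libraries. With the 6 A6 libraries alone the fold was 1.61 and the adjusted p 1.4e-05, and with the 18 libraries of P4, A1 and A6, an alternative chosen after the data were seen, 1.62 and 5.4e-05. At A1 the mutants held 2048, 2211 and 2238 CPM and the controls 1782, 1825 and 1572 CPM, a 1.26-fold difference that was not called (adjusted p = 0.91) and was called with the 6 A1 libraries alone (adjusted p = 0.037).

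Rh3 showed a smaller difference at A6. The mutants held 92.2, 93.0 and 80.1 CPM and the controls 66.4, 74.2 and 71.6 CPM, without overlap. The fold was 1.25 (95% interval 0.909 to 1.72, edgeR adjusted p = 0.45), with an adjusted p of 0.0062 in the fit of the 6 A6 libraries alone.

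The other members were not called in any of these fits at P4, A1 or A6. At A6 the fold of mutant over control was 1.09 for Rh4 (95% interval 0.855 to 1.40), 1.12 for Rh6 (0.825 to 1.53), 1.09 for Rh2 (0.804 to 1.48) and 0.920 for Rh7 (0.605 to 1.40). At A1 the fold of Rh6 was 0.885 (0.642 to 1.221) and of Rh4 1.158 (0.902 to 1.49). The intervals of Rh4 and Rh6 at A6 lie wholly below the 2.93 to 5.72 of Rh5.

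Counted by overlap alone, the mutant libraries stood all above the control libraries for 1 rhodopsin at P4 (Rh5), 4 at A1 (ninaE, Rh4, Rh5 and Rh7) and 4 at A6 (ninaE, Rh2, Rh3 and Rh5), and all below for none at these 3 stages. Of all genes tested, 8.37% at P4, 12.5% at A1 and 19.7% at A6 stood all above. Of the 13672 genes tested, 762 at P4, 1459 at A1 and 2454 at A6 stood all below.

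At WPP, P1, P2, P3 and P4 no rhodopsin was called, by edgeR or by DESeq2. At an unadjusted p under 0.05, edgeR counted none at WPP, Rh2 at P1 and Rh5 at each of P2, P3 and P4. Over all genes, 0.651% were called at WPP, 0.797% at P1, 11.6% at P2, 0.446% at P3 and 0.856% at P4. The Rh2 value at P1 compares 5 counts in mutants with 0 in controls.

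**Figure D3:**
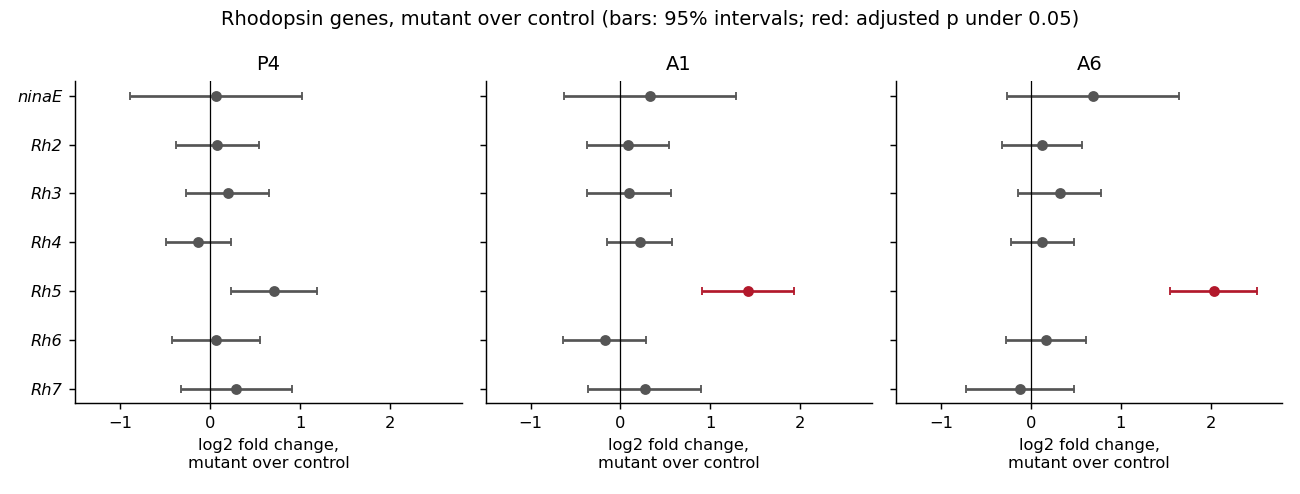
The log2 fold change of mutant over control for each rhodopsin gene at P4, A1 and A6, with bars for 95% intervals from the edgeR fit of 42 libraries, in red where the adjusted p was under 0.05. Rh5 at A1 (1.42) and A6 (2.03) are the 2 red points, and ninaE has the widest bars.

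For the pairs of inner photoreceptors, shares were compared within R8 and within R7, and none of the 9 tests can pass a threshold of 0.05 with 3 libraries a group. The share of Rh6 in the sum of Rh5 and Rh6, from FPKM, was 90.3%, 86.1% and 85.2% in the A6 controls and 65.4%, 66.5% and 61.4% in the A6 mutants. At A1 it was 84.0% ± 4.40 (SD, n = 3) in controls and 62.0% ± 3.02 in mutants, and at P4 55.9% ± 5.68 and 44.9% ± 6.72. The groups did not overlap at any of the 3 stages. At P4 they nearly touched, with the lowest control at 51.62% and the highest mutant at 51.56%. Each exact 2-sided permutation test gave p = 0.10, the smallest that 3 against 3 libraries allow (0.18 after Benjamini-Hochberg adjustment over 9 shares).

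For R7, the share of Rh4 in the sum of Rh3 and Rh4 was 72.7% ± 2.31 in the A6 controls and 70.0% ± 0.321 in the A6 mutants (SD, n = 3, exact p = 0.20), and the groups overlapped. At A1 it was 59.4% ± 1.56 and 61.4% ± 1.05 (exact p = 0.20), and at P4 57.6% ± 2.81 and 51.7% ± 2.51, without overlap (exact p = 0.10, adjusted 0.18). The difference between the R8 and R7 shares was not tested. The share of ninaE in all 7 was 87.7% ± 0.729 in the A6 controls and 90.4% ± 0.681 in the A6 mutants (exact p = 0.10). These shares compare levels of RNA and do not count units of the eye.

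The ratio of the pale rhodopsins, Rh5 over Rh3, was 0.122, 0.146 and 0.187 in the A6 controls and 0.490, 0.481 and 0.568 in the A6 mutants, and at A1 0.142 ± 0.037 and 0.378 ± 0.013 (SD, n = 3). The yellow ratio, Rh6 over Rh4, was 0.387 ± 0.0074 and 0.398 ± 0.011 at A6, where the groups overlapped, and 0.514 ± 0.055 and 0.390 ± 0.051 at A1, where they did not. These 6 ratios were added after the data were seen. Exact permutation p was 0.10 for Rh5 over Rh3 at P4, A1 and A6 and for Rh6 over Rh4 at A1, or 0.15 after adjustment over the 6, so none passed.

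**Figure D4:**
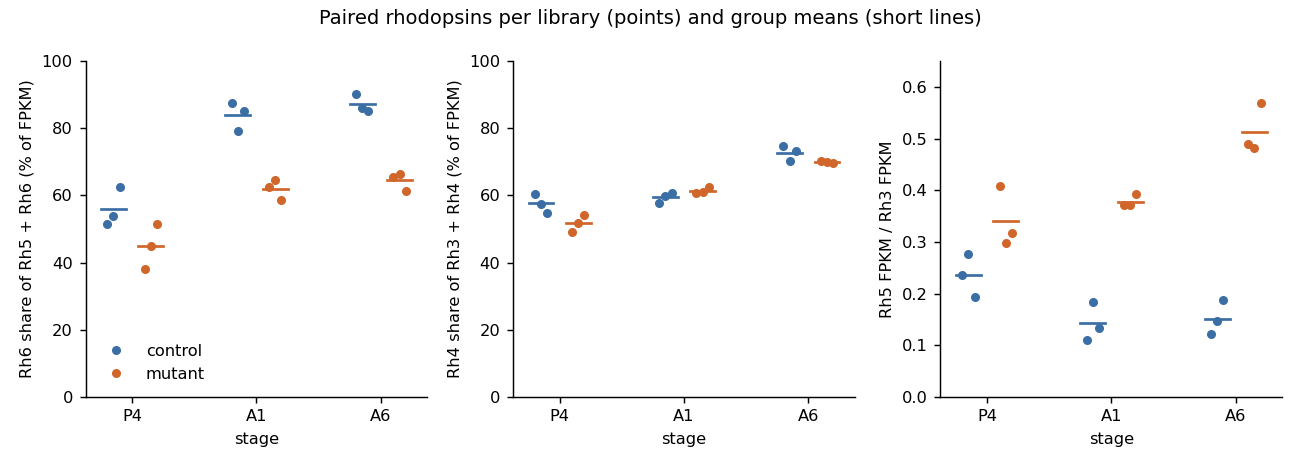
For P4, A1 and A6, the Rh6 share of Rh5 plus Rh6, the Rh4 share of Rh3 plus Rh4 (both in % of FPKM) and the ratio of Rh5 to Rh3 FPKM, with 1 point per library and short lines for group means, controls in blue and mutants in orange. At A6 the Rh6 share is 87.2% in controls and 64.4% in mutants, while the Rh4 share is 72.7% and 70.0%.

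Genes of the light response were also higher in the A6 mutants. Of 20 phototransduction genes tested, 10 were called higher and none lower, with folds of 1.31 to 2.14, where 6.14% of all genes were called higher. The median log2 fold change of the 20 was 0.45, beside 0.01 for all genes. Arr2, the major arrestin that binds activated rhodopsin, went from 389 ± 17.4 to 833 ± 89.6 CPM (2.14-fold, edgeR adjusted p = 4.3e-04). Ggamma30A, the gamma subunit of the eye's Gq protein, was 1.47-fold higher (adjusted p = 5.3e-06), norpA, the phospholipase C, 1.53-fold (adjusted p = 6.7e-04) and inaD, the scaffold that holds the signalling complex, 1.79-fold (adjusted p = 0.0011). With DESeq2's size factors 7 of the 20 were called, and without control A6 replicate 1, 6 of the 20.

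At P4 and A1 none of these 20 genes was called by edgeR, with 1 and 3 at an unadjusted p under 0.05 and 0 and 2 called by DESeq2. At P2, 4 of the 20 were lower in mutants, where 8.79% of all genes were called lower. They were trp, the light-activated channel (3.17-fold lower, edgeR adjusted p = 1.4e-07), ninaC, a photoreceptor myosin (2.33-fold), inaF-B, a partner of the channel (1.77-fold), and inaD (1.54-fold). The P2 mutants stood at 2.77 to 2.86 on the control course and the P2 controls at 2.99 to 3.02 (exact p = 0.10, the smallest possible). The part of this difference in position in the P2 values was not tested.

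Among 11 genes of rhodopsin maturation and chromophore supply, 2 were higher and 1 lower in the A6 mutants, where 11.4% of all genes were called in either direction. Xport-A and Xport-B, chaperones needed for Rh1 and the TRP channel, were 1.45-fold (edgeR adjusted p = 0.0067) and 1.35-fold (adjusted p = 0.028) higher. ninaD, a scavenger receptor that takes up carotenoids for the chromophore, went from 79.0 ± 29.3 to 28.8 ± 8.51 CPM, 2.74-fold lower (adjusted p = 5.5e-04). ninaB, the enzyme that cleaves carotenoids, had a log2 fold change of -0.34 that was not called (adjusted p = 0.20). At P2, where 11.6% of all genes were called, 1 of the 11 was higher and 5 lower, with Pdh, a retinol dehydrogenase, 24.3-fold lower (adjusted p = 7.6e-11).

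Among 7 genes of the rhabdomere and of photoreceptor transmission, chp, a surface protein of photoreceptors, was the only one called at A6 (1.47-fold higher, edgeR adjusted p = 0.0018). Hdc, the enzyme that makes the transmitter histamine, was at a log2 value of 0.22 (adjusted p = 0.63). Of 8 pan-neuronal genes, elav alone was called at A6 (1.48-fold higher, adjusted p = 0.0051). Both counts are near the 11.4% of all genes called at A6. The 8 pan-neuronal genes summed to 902 to 993 CPM in the A6 controls and 1032 to 1148 CPM in the A6 mutants. The 7 rhabdomere and transmission genes summed to 386 to 400 and 458 to 565 CPM. The 11 genes of maturation and chromophore supply went the other way, at 820.8 to 927.6 CPM in controls and 760.5 to 800.0 CPM in mutants. The 20 phototransduction genes summed to 3664 to 3846 and 5007 to 5780 CPM.

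**Figure D5:**
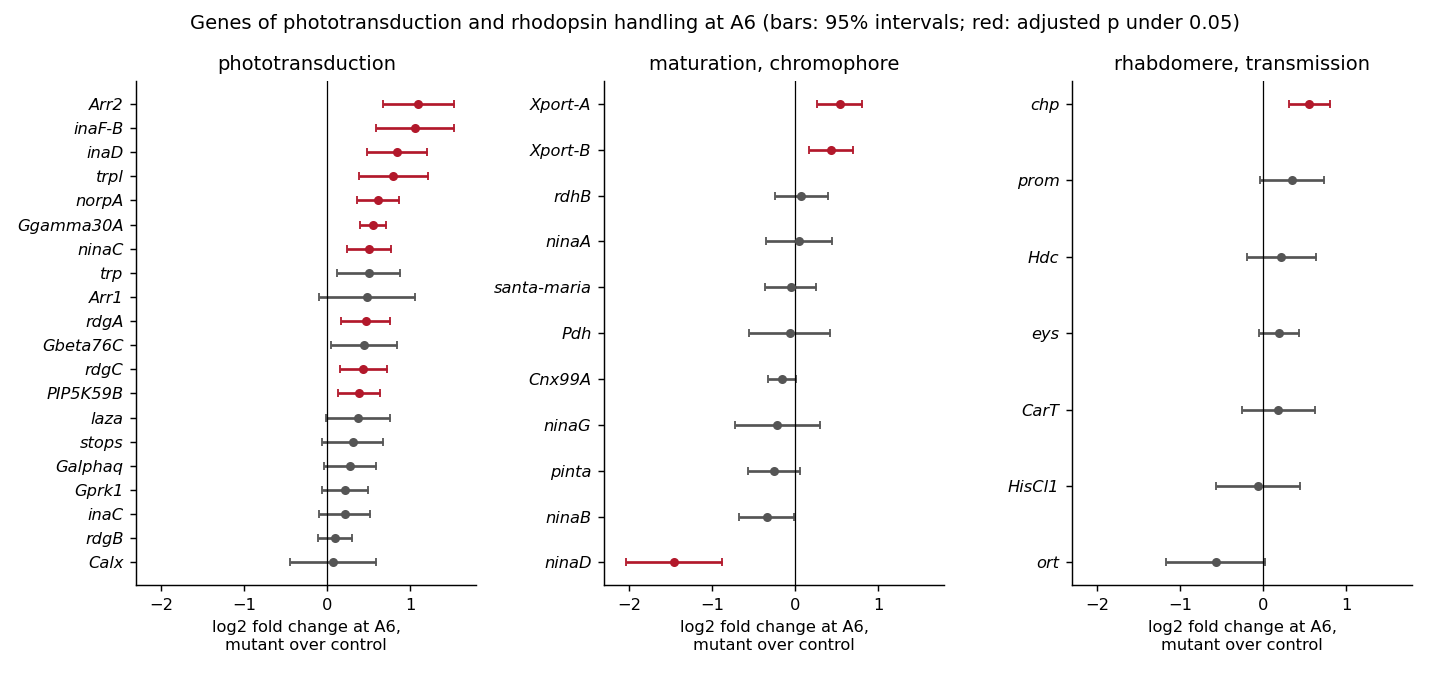
The log2 fold change of mutant over control at A6 for 20 phototransduction genes, 11 genes of rhodopsin maturation and chromophore supply and 7 genes of the rhabdomere and transmission, with bars for 95% intervals from edgeR, in red where the adjusted p was under 0.05. All 10 red phototransduction genes lie to the right of 0, and ninaD (-1.46) is the 1 red gene to the left.

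Among 21 regulators of opsin choice and eye fate, 2 were called at A1 and 1 at A6, where 2.90% and 11.4% of all genes were called. At A1 melt, which in R8 promotes Rh5 over Rh6, was at 20.5, 28.8 and 30.4 CPM in controls and 11.9, 16.4 and 20.7 CPM in mutants, 1.63-fold lower (edgeR adjusted p = 0.024), the direction opposite to that of Rh5. oc, also called orthodenticle, a homeodomain activator of Rh3 and Rh5, was 1.62-fold lower at A1 (adjusted p = 0.029). At A6 melt and oc had log2 values of -0.05 and 0.18 that were not called (adjusted p = 0.96 and 0.65). gl, a zinc finger protein of photoreceptor identity, was called higher at A6 (1.55-fold, adjusted p = 0.037). DESeq2 called 1 of the 21 at A1 and 0 at A6. wts, the kinase that acts against melt in R8, was looked up after the values were seen and had a log2 value of -0.13 at A1 and 0.26 at A6 (adjusted p = 0.70 and 0.091). All of these regulators act in other tissues too, and whole animals were sampled.

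Other values moved with genotype at A6. The A6 mutants stood at 6.87 to 6.90 on the control course and the A6 controls at 6.98 to 7. The exact permutation p was 0.10, the smallest possible, or 0.35 after Benjamini-Hochberg adjustment over the 7 stages. The scale ends at 7, so no library could be placed later than A6 and the comparison can only show earlier positions. The 5 male transcripts summed to 1634 to 1745 CPM in controls and 1879 to 2002 CPM in mutants, and at A6 none of the 5 was called by edgeR or DESeq2 or had an unadjusted p under 0.05. The control level of Rh5, 8.60 ± 2.29 CPM at A1 and 10.7 ± 2.42 CPM at A6 (SD, n = 3), was below the 43.8 ± 0.524 CPM of the A6 mutants at both stages. The part of these differences in the rhodopsin values was not tested.

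Likeness of course was described over all 42 libraries, which share stages, depth and library preparation. Pearson's r of log2 CPM between ninaE and Rh3 was 0.98, and between Rh6 and Rh7 0.52, the lowest of the 21 pairs. Of all other genes, hgo, an enzyme of tyrosine breakdown, was most like ninaE (r = 0.99), followed by alpha-Est9, Cyp6a20, CG9029 and CG11099 (0.98 each). The 5 most like Rh2 were CG10560, a10, CG9458, the channel gene trpl and CG11050 (0.98 each). For Rh3 they were CG10562, Ttd14, Proc-R, CG14142 and CG11099 (0.98 to 0.99), for Rh4 CG14292, CG14661, hgo, CG9029 and CG10226 (0.97 each), and for Rh6 CG6726, CG11368, CG42235, Obp83a and Ugt86Dh (0.97 to 0.98).

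Rh5 and Rh7 had lower highest values. For Rh5 the 5 genes were CG9458, CG7378, Cyp308a1, CG44195 and CG6432 (0.92 to 0.93). For Rh7 they were Gbeta76C, the beta subunit of the eye's Gq protein, Eaat1, CG43078, qvr and jef (0.94 to 0.95).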

How the data were processed

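The authors deposited estimated counts per gene and FPKM values for 42 libraries. Libraries were stranded and poly(A)-selected, per the labels. Per the submitters' processing notes, cutadapt 1.16, STAR 2.7.0f, RSEM 1.3.1, DESeq2 1.22.2 and build dm6 were used, without roles. Which annotation, strand option and filters applied is not given in the sources used here. All deposited counts were whole numbers and entered the tests unchanged. The deposited FPKM served only to compare genes with each other.

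Groups follow the labelled genotype and stage. Nothing says that libraries of 1 group are separate animals or cultures. The p-values thus reflect only variation among the libraries at hand, possibly technical. The 42 pairs of libraries within a group differed by more than sampling noise (chi-square per gene 2.77 to 67.5).

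One edgeR 4.0.16 quasi-likelihood fit in R 4.3.3 (TMM, low-count filter, robust, 14 groups, 28 residual degrees of freedom) gave log2 fold changes and 95% intervals, with p-values adjusted over all 13672 genes per comparison at a threshold of 0.05. Genotype, step, step difference and interaction contrasts were tested. Shares and positions on the control course (2000 genes, rhodopsins and listed genes left out, log2 CPM with a prior count of 2) were compared by exact permutation. The pipeline was tested on simulated data. Alternatives were DESeq2 1.42.0, its size factors, no filter, no robust option, single stages, 18 late libraries and each library left out.

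The 7 genes and all gene lists were chosen with earlier results of these data known. All 7 genes were named, with up to 4 genes per list by smallest adjusted p in each comparison, counts of 5 or fewer in full, and the 5 most like genes per rhodopsin. The gene trpgamma is listed but was not analysed here.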

Additional observations from a re-analysis of the deposited data

Results flagged for a closer look

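The difference of Rh5 between mutants and controls varied among the 7 stages (edgeR interaction adjusted p = 0.0091), with log2 fold changes of 0.44, 0.07, 1.36, 1.13, 0.71, 1.42 and 2.03 from WPP to A6. Every value was above 0 in this fit, and the 2 at A1 and A6 were called. The value at P1 did not keep its sign, running from -0.33 to 0.47 over the alternatives.

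Among the listed genes, the same test of genotype by stage, in edgeR with adjustment over all genes, gave adjusted p-values for phototransduction of 3.1e-06 (ninaC), 1.2e-05 (trp), 0.0016 (Ggamma30A), 0.0022 (inaF-B), 0.0071 (inaD) and 0.023 (norpA). For maturation and the chromophore it gave 5.8e-08 (Pdh), 6.4e-06 (Xport-A), 1.1e-05 (Xport-B) and 0.019 (ninaA). It also gave 1.6e-05 for chp, 0.021 for ort, 0.021 for melt, 0.022 for elav and 6.9e-04 for Yp3.

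The step from A1 to A6 differed between genotypes, in the same edgeR fit, for Ggamma30A (adjusted p = 0.0073), elav (0.019), oc (0.040) and norpA (0.045), each with a more positive step in mutants. DESeq2 called 1 of the 20 phototransduction genes at this step, 0 of the 21 regulators and 0 of the 8 pan-neuronal genes.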

How the results depend on the processing

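Rh5 was called higher in mutants at A1 and A6 in each of the 48 alternatives, with adjusted p from 2.0e-07 to 0.0094 at A1 and from 2.4e-17 to 2.0e-05 at A6, and its interaction in each of 46 (0.00018 to 0.031). The count of rhodopsins called at A1 became 2 (Rh5 and ninaE) and at A6 3 (also Rh3) with the 6 libraries of the stage only, and with the 18 libraries of P4, A1 and A6 only, chosen after the data were seen, it became 1 at P4 (Rh5, adjusted p = 0.043) and 2 at A6. Leaving out 1 library each gave 0 to 1 at P2, 3 to 5 from WPP to P1 and 1 to 3 from A1 to A6 in controls. Those at 1 for P2 lacked mutant P1 replicate 1, mutant P2 replicate 1 (Rh5, adjusted p 0.036 and 0.047) or control P2 replicate 1 (Rh2, 0.045). Those at 3 for WPP to P1 lacked control WPP replicate 1 or 3 or control P1 replicate 3. The phototransduction count at A6 ran from 6 (without control A6 replicate 1) to 11 with single libraries left out, and was 15 with the 6 A6 libraries only. The share of all genes called in the fits of 6 or 18 libraries was not counted. The rhodopsin and phototransduction counts from those fits therefore have no background to be read against. DESeq2 called 5 of the 11 maturation genes at A6 where edgeR called 3. Placed by 500 genes, the P2 mutants differed from controls by -0.14 rather than -0.19 stages. Among the results of single rhodopsins, no called result changed sign, and 48 uncalled values did. Comparisons of 2 groups that both held 3 counts or fewer were left out of this, and signs of the listed genes were not compared. In the fit of the 6 WPP libraries no rhodopsin passed the filter. No paired analysis was possible because the labels give no replicate numbers, and those used here only name libraries in accession order. The causes were not tested. With 3 libraries a group, exact tests cannot go below p = 0.10, and rhodopsins before P3 rest on few counts.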

Other observations

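Of the 10 genes nearest to Rh5 on 2L, 5 on each side, 2 were called at A6, where 11.4% of all genes were. Nfs1, a cysteine desulfurase of iron-sulfur cluster assembly and second before Rh5, had a log2 fold change of 0.59 at A6 (edgeR adjusted p = 8.4e-06) and 0.53 at A1 (adjusted p = 1.9e-04). dmGlut, second after Rh5, was at -0.44 at A6 (adjusted p = 0.048). The genes next to Rh5 on each side, Hacd1 and Wdr81, were at -0.35 and -0.05 at A6 and were not called (adjusted p = 0.13 and 0.92).

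The female-biased gene fit stood at 11.2, 12.8 and 14.95 CPM in the A6 controls and 0.843, 1.13 and 1.61 CPM in the A6 mutants, a 10.8-fold difference (edgeR adjusted p = 8.9e-05). It was the 1 gene called at A6 among the 3 female markers tested. These 3 summed to 108.7 to 121.8 CPM in the A6 controls and 116.2 to 124.7 CPM in the A6 mutants, so the list as a whole was not lower.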
